A study of Caenorhabditis elegans with 8 samples.

Results

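Cyclic nucleotide-gated (CNG) and transient receptor potential (TRP) channels turn sensory stimuli into electrical signals, and 10 C. elegans genes for them are described here: the CNG subunit genes tax-2, tax-4, cng-1, cng-2 and cng-3, the TRPV genes osm-9, ocr-1 and ocr-2, the TRPN gene trp-4 and the TRPA gene trpa-1. They were taken by name, all 10 were found among the 46748 genes of the count table, and 7 passed the filter on low counts and were tested. Reads per gene came from 8 sequencing libraries of neurons that had been sorted by fluorescence from untreated worms (strain OH10689). These worms carry otIs355 [rab-3(prom1)::2xNLS-TagRFP] IV, in which the rab-3 promoter, active across neurons, directs TagRFP to nuclei. The worms' age was not stated. RNA of 4 samples was divided between the SoLo Ovation kit (Tecan; 4 libraries) and the SMARTseq V4 kit followed by Nextera XT (4 libraries), so the kits are compared on the same RNA. The library number in the titles is taken here to mark the RNA sample, which is inferred and not stated. As background, SMARTseq V4 primes cDNA on the poly(A) tail, whereas SoLo does not depend on it and depletes ribosomal sequences from the finished library. Nothing says that the 4 RNA samples came from separate cultures, so p-values measure only the spread between these samples, which may be technical. Where a fit or test pairs the libraries by RNA sample, its p-value measures the spread of the kit difference between these samples.

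In chemosensory, thermosensory and gas-sensing neurons of the worm, receptors raise or lower cGMP through guanylyl cyclases and phosphodiesterases, and cGMP opens a CNG channel made of the alpha subunit TAX-4 and the beta subunit TAX-2. Other ciliated neurons, such as those for nociception and some odours, signal through TRPV channels, in which OSM-9 and OCR-2 depend on each other to reach the cilium. TRP-4 is a mechanosensory channel of dopaminergic and stretch-sensing neurons, and TRPA-1 responds to cold and noxious stimuli. Most of these genes are thus known from few neuron classes, and trpa-1 also from muscle and intestine, while the sort collected neurons at large. In such bulk RNA, fewer cells of a type and less RNA per cell cannot be told apart.

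The SoLo libraries held 2354681 to 3454199 gene counts and the SMARTseq libraries 4510927 to 7099497. Summed CPM (read counts relative to library size, scaled by TMM, the trimmed mean of M-values) of 18 pan-neuronal genes lay between 18064 and 25268 in SoLo and between 28990 and 39605 in SMARTseq. Of this sum, cab-1 alone averaged 3119 CPM in SoLo and 12873 CPM in SMARTseq. Most of these genes went the other way, 11 being higher and 3 lower in SoLo in the test described below. Markers of other tissues were present as well. The sum of 9 muscle markers was 6084 to 7582 CPM in SoLo, against 4442 to 5905 CPM in SMARTseq, that of 10 intestine markers 273 to 463 CPM and 117 to 215 CPM, that of 9 hypodermis and cuticle markers 206 to 444 CPM and 1673 to 4432 CPM, that of 10 germline markers 151 to 252 CPM and 259 to 492 CPM, and that of 7 glia markers 100 to 130 CPM and 225 to 295 CPM. The muscle sum was mostly unc-54, which averaged 6255 CPM in SoLo and 3891 CPM in SMARTseq. None of the marker genes was at 0 in all libraries. The libraries of RNA sample 1 stood apart from the others of their kit. A chi-square test over genes with at least 10 reads in a pair gave 25.12 to 27.66 per degree of freedom between SoLo library 1 and the other SoLo libraries, against 2.14 to 3.10 among those. In SMARTseq the values were 75.66 to 85.82 and 8.76 to 10.69. No pair of libraries agreed within sampling noise, so all were kept as separate samples, and results are given with and without RNA sample 1. A fit without library 1 of a single kit keeps RNA sample 1 in the other kit only, so it compares unlike RNA samples. Its estimate therefore moves for any gene that is high or low in RNA sample 1.

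All channel genes except trp-4 and, in SMARTseq, cng-3 were highest in RNA sample 1, in both kits. This was so for 8 of the 10 genes, or 6 of the 7 tested ones, whereas 24.4% of all 11378 tested genes were highest in RNA sample 1 in both kits. In 6 of the 10 genes (4 of the 7 tested), library 1 exceeded 2 times the next highest library of its kit in both kits, which 4.55% of tested genes did. The steepest was ocr-2, with 19.1 CPM in SoLo library 1 against 0.699 to 1.78 CPM in the other SoLo libraries. In SMARTseq, ocr-2 had 24.5 CPM in library 1 against 0.269 to 3.53 CPM. For trp-4 the order was turned round. It was lowest in RNA sample 1 in both kits, as were 24.3% of tested genes, with 26.1 CPM in SoLo library 1 against 36.4 to 57.3 CPM in the other 3, and 31.8 CPM in SMARTseq library 1 against 34.3 to 57.6 CPM.

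**Figure D1:**
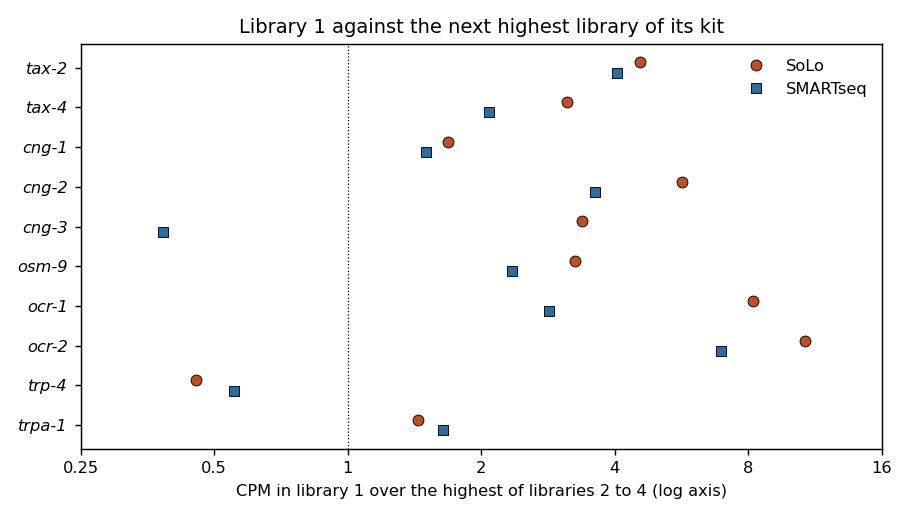
CPM in library 1 divided by the highest CPM among libraries 2 to 4 of the same kit, on a log axis, for each channel gene (circles SoLo, squares SMARTseq). Points right of the dotted line at 1 are genes highest in RNA sample 1; ocr-2 reaches 10.7 in SoLo and 6.93 in SMARTseq, while trp-4 lies at 0.455 and 0.553.

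Many, but not all, of the genes listed around these channels were highest in RNA sample 1 as well. The counts below stand beside 24.4% of all tested genes highest and 24.3% lowest in RNA sample 1 in both kits. Of 25 genes of intraflagellar transport and the cilium, 22 were highest in RNA sample 1 in both kits, with a summed level of 1188 CPM in SoLo library 1 against 462 to 497 CPM in the other SoLo libraries, and 3653 CPM in SMARTseq library 1 against 1108 to 1332 CPM. Of 14 G protein alpha subunits and regulators of sensory signalling 13 were highest there, and of 23 guanylyl cyclases 14. The cyclases summed to 930 CPM in SoLo library 1 against 684 to 750 CPM, and to 2109 CPM in SMARTseq library 1 against 1132 to 1279 CPM. Of 8 phosphodiesterases and cGMP-dependent kinases 7 were highest, and of 20 neuron class markers 14. Some of these markers are guanylyl cyclases and are counted in both lists. Among 7 calcium genes 3 were highest, and among 16 other CNG and TRP genes 5, neither share being below that of all tested genes. Of 18 pan-neuronal genes, 6 were highest and 7 lowest in RNA sample 1 in both kits, while their summed level was higher there, 25268 CPM in SoLo library 1 against 18064 to 18564 CPM in the other SoLo libraries, and 39605 CPM in SMARTseq library 1 against 28990 to 30945 CPM. Of 9 hypodermis and cuticle markers 7 were lowest, their sum being 206 CPM in SoLo library 1 against 373 to 444 CPM, and 1673 CPM in SMARTseq library 1 against 3282 to 4432 CPM. Of 10 intestine markers 4 were highest and 0 lowest, with a sum of 463 CPM in SoLo library 1 against 273 to 349 CPM, and 215 CPM in SMARTseq library 1 against 117 to 135 CPM. Of 10 germline markers 0 were highest and 4 lowest, with 151 CPM in SoLo library 1 against 192 to 252 CPM, and 259 CPM in SMARTseq library 1 against 286 to 492 CPM. Of 9 muscle markers 3 were highest and 1 lowest, and of 7 glia markers 1 and 2. The part of these cell types in the channel genes' levels was not tested. The summed level of the 5 CNG genes was 120 CPM in SoLo library 1 against 24.2 to 30 CPM, and 348 CPM in SMARTseq library 1 against 67.9 to 111 CPM. That of the 3 TRPV genes was 124 CPM against 24.6 to 31.4 CPM in SoLo, and 54.1 CPM against 2.42 to 13.9 CPM in SMARTseq.

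Between the kits, 4 of the 7 tested channel genes differed. Lower in SoLo were cng-1, cng-2 and trpa-1, and higher in SoLo was osm-9, while tax-2, tax-4 and trp-4 did not pass the test. Of all 11378 tested genes 47.6% were called, 20.0% higher and 27.6% lower in SoLo, so the members' share of 4 in 7 lies near the background and is no result about them as a group. The median log2 fold change (SoLo over SMARTseq) was -0.92 over the 7 tested genes and 0.01 over all tested genes. Fold changes come from edgeR's quasi-likelihood test with TMM scaling, with Benjamini-Hochberg adjustment over all tested genes, a threshold of 0.05, and n = 4 libraries per kit. With the RNA sample number as a block in the fit, 1 gene was higher and 4 were lower in SoLo, the added one being tax-2, where 28.9% and 32.2% of all tested genes were called (61.1% in all). Without RNA sample 1, the members' counts were 1 and 3, beside 26.2% and 32.2% of all tested genes (58.3%). Without a filter on low counts they were 1 and 3, beside 9.80% and 11.9% (21.7%), and by DESeq2 also 1 and 3, beside 17.7% and 20.3% (38.0%). With library totals as the only scaling 2 of the 7 were called, osm-9 higher and cng-1 lower, beside 58.9% of all tested genes, of which 4318 were then higher and 2388 lower, so that the excess of lower calls over all genes turned round. The groups of 4 did not overlap for cng-1 and trpa-1, lower in SoLo, and osm-9, higher in SoLo, and for 46.2% of tested genes (25.0% lower and 21.2% higher).

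**Figure D2:**
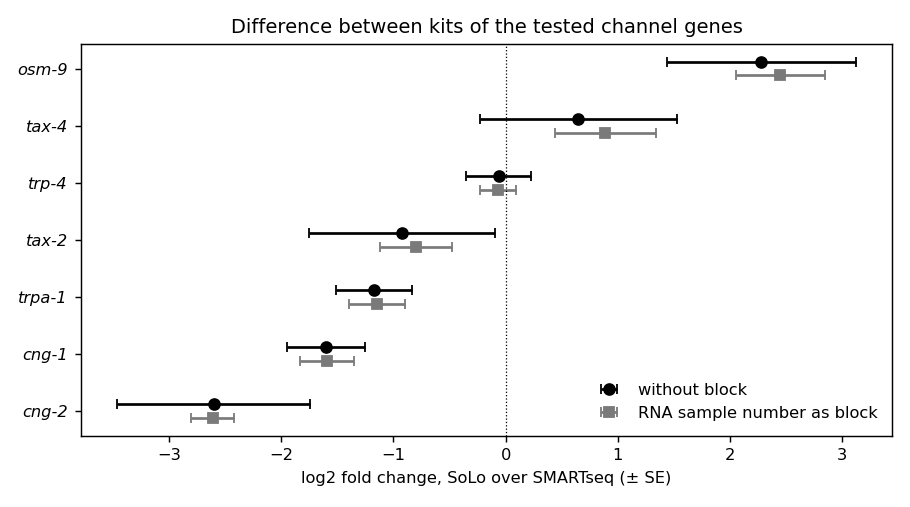
log2 fold change of SoLo over SMARTseq (± SE, n = 4 libraries per kit) for the 7 tested channel genes, without (circles) and with (squares) the RNA sample number as a block. osm-9 lies at 2.28 and 2.45, trp-4 near 0, and cng-2 at -2.60 and -2.61, with an SE of 0.86 without and 0.19 with the block.

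Of the core cGMP-gated channel, tax-4, the alpha subunit gene on chromosome III (9181546 to 9185888 on WBcel235), had 34.9, 6.06, 5.32 and 11.2 CPM in SoLo libraries 1 to 4, and 22.1, 10.6, 1.24 and 2.42 CPM in SMARTseq libraries 1 to 4. The kits overlapped, with both of the lowest values in SMARTseq. The log2 fold change of tax-4 was 0.65 ± 0.88 (edgeR adjusted p = 0.575), and 0.65 ± 0.69 without RNA sample 1 (adjusted p = 0.449). Its read numbers were low, 197 in all SoLo and 190 in all SMARTseq libraries together, and 7 and 9 in SMARTseq libraries 3 and 4.

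Its partner tax-2, the beta subunit gene on chromosome I (9020945 to 9025608), had 22.7, 4.99, 3.87 and 4.54 CPM in SoLo libraries 1 to 4, and 45.7, 3.78, 7.77 and 11.3 CPM in SMARTseq libraries 1 to 4. SoLo lay below SMARTseq in RNA samples 1, 3 and 4 and above it in RNA sample 2. For tax-2 the log2 fold change was -0.92 ± 0.83 (edgeR adjusted p = 0.391), and -0.80 ± 0.32 with the block, just past the threshold (adjusted p = 0.0493). With the block, the call was lost when RNA samples 2 to 4 were summed (-0.78, adjusted p = 0.0508) and without RNA sample 1 (-0.70, adjusted p = 0.257). Without SMARTseq library 1, which leaves RNA sample 1 in SoLo alone, the estimate turned to 0.24. Without RNA sample 1 in either kit it was -0.79 ± 0.47 (edgeR adjusted p = 0.173). The balance of the partners in one library is free of the scaling between libraries. The log2 ratio of tax-2 to tax-4 reads (0.5 added to each) averaged -0.65 ± 0.43 in SoLo and 1.08 ± 1.81 in SMARTseq (SD, n = 4), a difference of -1.73 that did not pass the exact two-sided permutation test (p = 0.143, and 0.143 after adjustment over the 2 ratios tested). SoLo ratios spread little, between -1.27 and -0.27, whereas those of SMARTseq reached from -1.46 to 2.57.

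The other CNG family genes, cng-1, cng-2 and cng-3, are less studied relatives of tax-2 and tax-4. On chromosome IV (2037191 to 2043549), cng-2 had 40.5, 7.13, 6.76 and 5.59 CPM in SoLo libraries 1 to 4, and 236, 65.5, 29.7 and 35.8 CPM in SMARTseq libraries 1 to 4. In each RNA sample SoLo was the lower kit, although the range of SoLo, through library 1, overlapped that of SMARTseq. The estimate for cng-2 was a log2 fold change of -2.60 ± 0.86 (6.08-fold lower in SoLo, edgeR adjusted p = 0.0315), and -2.75 ± 0.33 without RNA sample 1 (adjusted p = 3.23e-05). With the RNA sample number as a block it was -2.61 ± 0.19 (edgeR adjusted p = 1.54e-07). RNA sample by RNA sample the log2 differences were -2.54, -3.17, -2.11 and -2.64. In the fit without the block, the call was lost when SoLo library 2, 3 or 4 was left out (adjusted p = 0.0883, 0.0883 and 0.0852). It was also lost without SMARTseq library 1 (log2 fold change -1.54, adjusted p = 0.0736), and the estimate was -3.78 without SoLo library 1. Both of these last fits keep RNA sample 1 in a single kit. With library totals as the only scaling the value was -2.06 (adjusted p = 0.0625).

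On chromosome V (15025731 to 15031473), cng-1 had 14.4, 8.56, 7.25 and 7.69 CPM in SoLo libraries 1 to 4, and 42.8, 26.9, 28.6 and 16.7 CPM in SMARTseq libraries 1 to 4. Every SoLo value lay below every SMARTseq value, and library 1 was the highest of each kit by only 1.68 and 1.5 times. The log2 fold change of cng-1 was -1.60 ± 0.35 (3.03-fold lower in SoLo, edgeR adjusted p = 0.00439) and -1.65 ± 0.29 without RNA sample 1 (adjusted p = 0.000587). With the RNA sample number as a block it was -1.59 ± 0.24 (edgeR adjusted p = 9.38e-05). It stayed called whichever single library was left out. Exons of F14H8.8 on the opposite strand cover 9.7% of the cng-1 exon bases, and the strand setting of the counting is not given, but F14H8.8 itself had 5 reads in SoLo and 4 in SMARTseq.

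The fifth CNG gene, cng-3 on chromosome IV (9477522 to 9481037), did not pass the filter on low counts, with 39 reads in all SoLo and 38 in all SMARTseq libraries. It had 7.21, 2.14, 0.966 and 1.05 CPM in SoLo libraries 1 to 4, and 1.54, 4.02, 1.06 and 1.62 CPM in SMARTseq libraries 1 to 4. The kits overlapped, and only SoLo had its highest value in RNA sample 1. Tested without a filter, cng-3 gave 0.55 ± 0.80 on the log2 scale (edgeR adjusted p = 0.62).

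**Figure D3:**
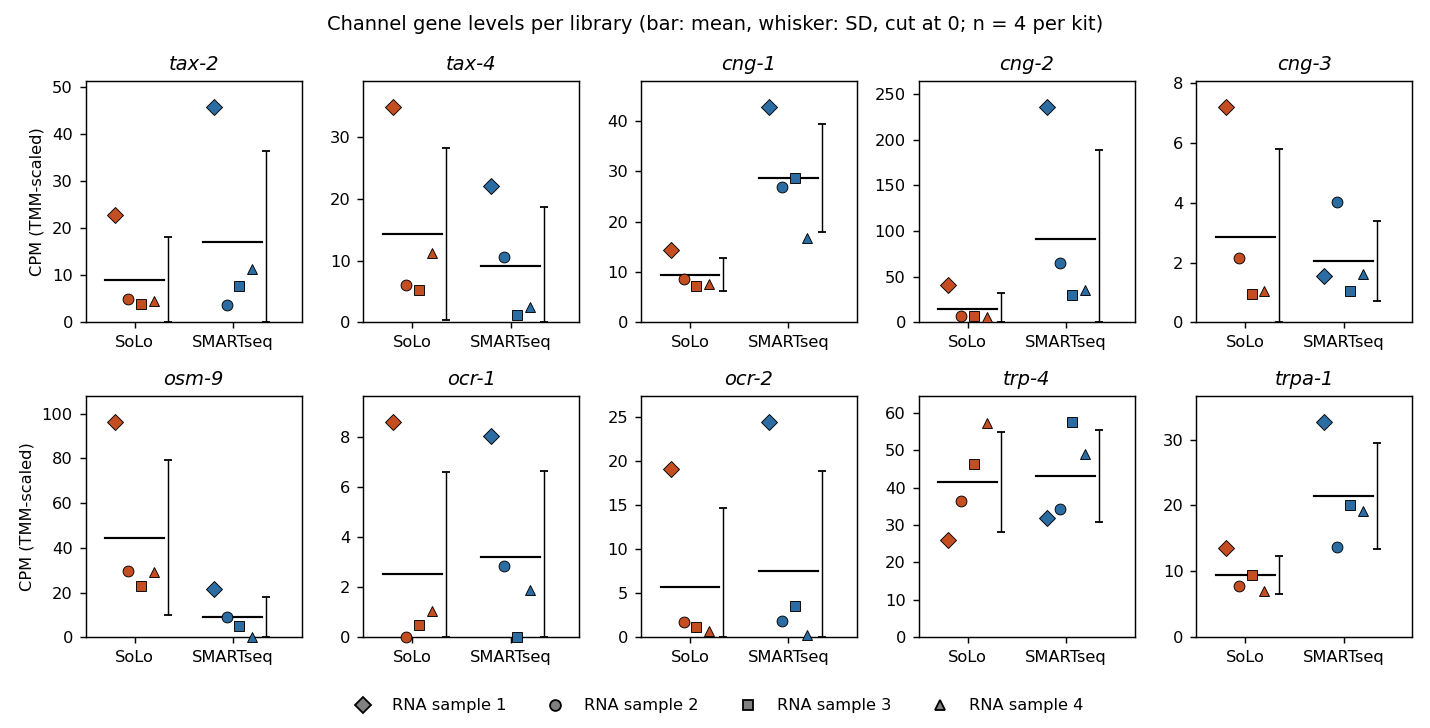
TMM-scaled CPM of each channel gene in every library, with SoLo left of SMARTseq; symbols mark the RNA sample, the bar is the mean and the whisker the SD (n = 4 per kit). Diamonds (RNA sample 1) lie above the other libraries in most panels and below them for trp-4, and osm-9 and cng-2 show opposite differences between the kits.

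Among the TRPV genes, osm-9, a subunit known to act with several other TRPV proteins of the worm, was higher in SoLo. It lies on chromosome IV (3551090 to 3557431). SoLo libraries 1 to 4 had 96.4, 29.6, 23 and 29.3 CPM of osm-9, and SMARTseq libraries 1 to 4 had 21.6, 9.22, 5.12 and 0.269 CPM. Every SoLo value lay above every SMARTseq value. The log2 fold change of osm-9 was 2.28 ± 0.84 (4.85-fold higher in SoLo, edgeR adjusted p = 0.0495), 2.45 ± 0.40 with the block (adjusted p = 0.000202) and 2.43 ± 0.60 without RNA sample 1 (adjusted p = 0.0048). The value in SMARTseq library 4 rested on 1 read, against 84 reads in SoLo library 4. In the fit without the block, the call of osm-9 was narrow. It was lost without SoLo library 1 (1.60, adjusted p = 0.136), 2 (2.48, adjusted p = 0.0671), 3 (2.55, adjusted p = 0.0564) or 4 (2.48, adjusted p = 0.0665) and without SMARTseq library 2 (2.26, adjusted p = 0.1), 3 (2.06, adjusted p = 0.123) or 4 (1.87, adjusted p = 0.0501), and the log2 fold change was 3.14 without SMARTseq library 1 (adjusted p = 0.00749). The fits without library 1 of a single kit keep RNA sample 1 in the other kit only.

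Its ciliary partner ocr-2 (chromosome IV, 8213788 to 8220087) did not pass the filter on low counts, since outside RNA sample 1 it had 2 to 5 reads in the SoLo and 1 to 20 reads in the SMARTseq libraries. It had 19.1, 1.78, 1.21 and 0.699 CPM in SoLo libraries 1 to 4, and 24.5, 1.89, 3.53 and 0.269 CPM in SMARTseq libraries 1 to 4. The kits overlapped in full, and without a filter the log2 fold change of ocr-2 was -0.31 ± 1.08 (edgeR adjusted p = 0.846). The log2 ratio of osm-9 to ocr-2 reads averaged 3.86 ± 1.14 in SoLo and 0.64 ± 1.09 in SMARTseq (SD, n = 4). It was higher in SoLo in each of the 4 RNA samples, with a mean difference of 3.22 (exact two-sided permutation p = 0.0286, which no split of 8 libraries can go below, and 0.0571 when adjusted over 2 ratios). It therefore failed the correction, which at this smallest p it could pass only if the tax-2 to tax-4 ratio also had p under 0.05. The exact sign-flip test over the 4 pairs gave 0.125, its smallest possible p. Leaving out any single library allows no p under 0.0571, and leaving out RNA sample 1 none under 0.1, and these were the values reached.

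The third TRPV gene, ocr-1 (chromosome V, 10764366 to 10768590), known from the odour-sensing AWA neurons, had few reads. SoLo libraries 1 to 4 had 8.59, 0, 0.483 and 1.05 CPM of ocr-1, and SMARTseq libraries 1 to 4 had 8.04, 2.84, 0 and 1.88 CPM. The 0 in SoLo library 2 allows up to 1.07 CPM and that in SMARTseq library 3 up to 0.53 CPM (3 counts, counting error only). ocr-1 did not pass the filter on low counts. Without the filter the value was -0.23 ± 1.19 (edgeR adjusted p = 0.898). Exons of D1054.1 on the opposite strand cover 4.8% of the ocr-1 exon bases. D1054.1 had 88 reads in SoLo and 699 in SMARTseq, so a part of the few ocr-1 reads is uncertain.

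Outside these families, the mechanosensory channel gene trp-4 did not pass the test. On chromosome I (13899085 to 13914008), it had 26.1, 36.4, 46.4 and 57.3 CPM in SoLo libraries 1 to 4, and 31.8, 34.3, 57.6 and 49 CPM in SMARTseq libraries 1 to 4. The ranges overlapped almost wholly, and both kits had their 2 lowest values in RNA samples 1 and 2. The log2 fold change of trp-4 was -0.06 ± 0.29 (edgeR adjusted p = 0.887) and 0.48 with library totals as the only scaling (adjusted p = 0.184). The dopaminergic genes dat-1, the dopamine transporter, and cat-2, tyrosine hydroxylase, were chosen after their values were seen. Neither was lowest in RNA sample 1: dat-1 had 71.8 CPM in SoLo library 1 (range of the kit 65.7 to 77.1) and 193 CPM in SMARTseq library 1 (90.6 to 193), and cat-2 38.2 CPM (32.9 to 42.3) and 77.9 CPM (60.6 to 98.1). The part of any cell type in the trp-4 level was not tested.

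The TRPA channel gene trpa-1 (chromosome IV, 11864526 to 11875733) has the microRNA gene mir-124 within its introns on the same strand. It had 13.6, 7.85, 9.42 and 6.99 CPM in SoLo libraries 1 to 4, and 32.7, 13.7, 20 and 19.1 CPM in SMARTseq libraries 1 to 4. The kits did not overlap, though the highest SoLo value, 13.6, lay next to the lowest of SMARTseq, 13.7. The log2 fold change of trpa-1 was -1.17 ± 0.34 (2.25-fold lower in SoLo, edgeR adjusted p = 0.0177), and -1.14 ± 0.29 without RNA sample 1 (adjusted p = 0.00641). With the RNA sample number as a block it was -1.15 ± 0.25 (edgeR adjusted p = 0.00156). In the fit without the block it missed the threshold when SoLo library 2, 3 or 4 was left out (adjusted p = 0.0618, 0.0559 and 0.0635). With library totals as the only scaling the log2 fold change was -0.63 (adjusted p = 0.142).

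The order of levels differed between the kits. Per kilobase of exon, osm-9 led in SoLo with 15.5 ± 12.1 CPM per kb (SD, n = 4), and it stood above the next gene, trp-4, in 4 of 4 libraries. The order went on with trp-4, tax-4, cng-2, tax-2, cng-1, trpa-1, ocr-2, cng-3 and ocr-1, the last at 0.941 ± 1.51 CPM per kb. This order of means was not that of most libraries everywhere: tax-4 stood above cng-2, tax-2 above cng-1 and ocr-2 above cng-3 in 1 of 4 SoLo libraries each. In SMARTseq, cng-2 led with 32 ± 34 CPM per kb, above cng-1 in 4 of 4 libraries, followed by cng-1, trp-4, tax-2, trpa-1, tax-4, osm-9, ocr-2, ocr-1 and cng-3, the last at 1.05 ± 0.678 CPM per kb. There tax-2 stood above trpa-1 and ocr-1 above cng-3 in 1 of 4 libraries each. Between neighbours in either order the gap of the means was smaller than the larger of their SDs, which RNA sample 1 widens.

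As a share of the CNG family's CPM per kb, cng-2 took 24.1% ± 5.77 in SoLo and 53.9% ± 9.93 in SMARTseq (SD, n = 4), and tax-4 took 28.5% ± 7.72 and 5.85% ± 3.73. For both the 4 libraries of one kit lay apart from the 4 of the other: cng-2 shares were 17 to 30.7% in SoLo and 42.2 to 65.7% in SMARTseq, those of tax-4 21.8 to 38.7% and 2 to 10.5%. The share of cng-1 differed little, 22.3% ± 7.83 and 24.8% ± 11.8. Within the TRPV family osm-9 took 77.3 to 94.3% of the CPM per kb in SoLo libraries and 10.5 to 65.2% in SMARTseq libraries. The TRPV shares of SMARTseq library 4 rest on 1 read of osm-9, 7 of ocr-1 and 1 of ocr-2. These shares are descriptions, since the parts of a whole are bound to each other.

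**Figure D4:**
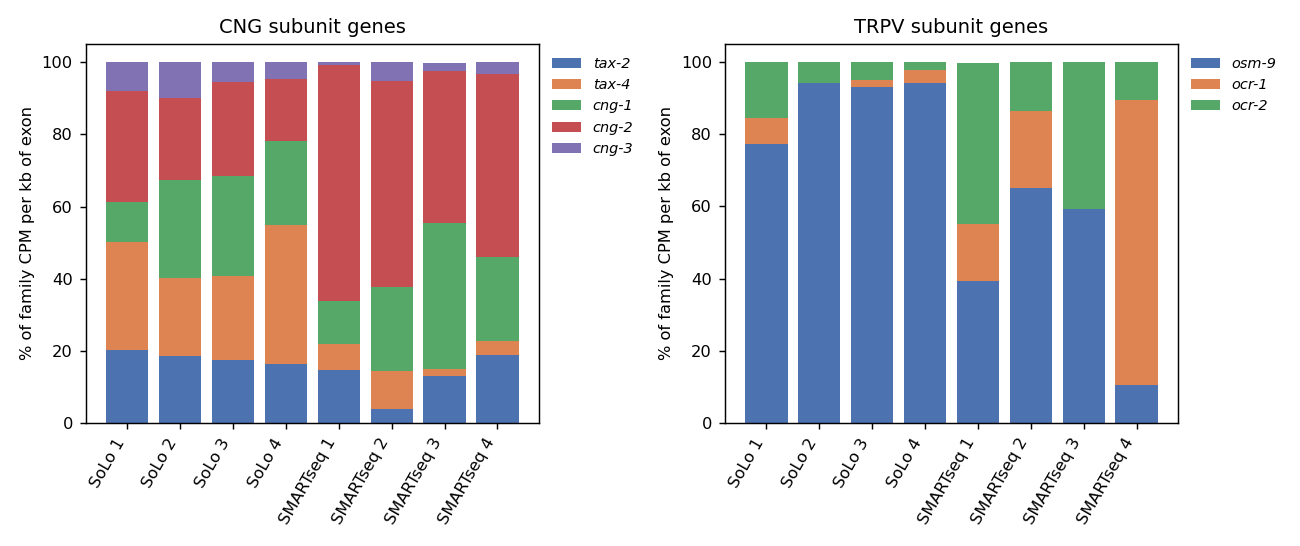
Share of each gene in its family's CPM per kb of exon, per library, with the SoLo libraries left of the SMARTseq libraries; CNG genes on the left, TRPV genes on the right. cng-2 fills 42.2 to 65.7% of the SMARTseq bars and 17 to 30.7% of the SoLo bars, and osm-9 fills 77.3% or more of each SoLo bar.

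The kits differ along gene length, so each member was set against the trend of log2 fold change on exon length over 10633 tested protein-coding genes. The trend lay at 0.28 at the 2872 exon bases of cng-2 and at 0.28 at the 2875 of osm-9, and their distances from it were -2.89 and 1.99 on the log2 scale. The distances of cng-1 and trpa-1 from the trend were -1.88 and -1.61. At its 6013 exon bases the trend stood at 0.75 for trp-4, whose distance was -0.81. Distances were 0.46 for tax-4 and -1.10 for tax-2. As cng-1, cng-2 and osm-9 have nearly the same exon length, the trend is nearly the same for them and their distances restate their fold changes. The part of gene length in the differences between kits was not tested.

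By the profile over the 8 libraries (Euclidean distance of log2(CPM + 1) centred on each gene's mean, all tested genes searched), the gene most like osm-9 was odr-3, a G protein alpha subunit of olfactory and nociceptive cilia, at a distance of 1.40, with Y53F4B.18 (1.59) and igdb-2 (1.61) next. The median distance of all tested genes from osm-9 was 5.20. odr-3 had 26.7 ± 30.1 CPM in SoLo, against 7.27 ± 8.21 CPM in SMARTseq, and 71.8 and 18.1 CPM in library 1. Its log2 fold change of 1.86 ± 1.05 did not pass the test (edgeR adjusted p = 0.176, and 0.00265 with the block). The profile of tax-4 was nearest to M6.4 (1.02), the dynein heavy chain gene dhc-4 (1.16) and tep-1 (1.26), against a median distance of 4.05. These distances are descriptions over 8 libraries.

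Around the channels, 106 genes of the cGMP, G protein, calcium, cilium, neuron class and other CNG and TRP lists were in the table, and 91 were tested. Of these 11 (12.1%) were higher and 31 (34.1%) lower in SoLo, beside 20.0% and 27.6% of all tested genes, with a median log2 fold change of -0.78. With the block the counts were 23 and 45, beside 28.9% and 32.2% of all tested genes. Without RNA sample 1 they were 21 and 41 of 86 tested, beside 26.2% and 32.2%. Without SMARTseq library 1 they were 23 and 28. With library totals as the only scaling they were 23 and 22, so the excess of lower calls was not kept. This scaling moved the background as well, to 4318 genes of all higher and 2388 lower. The part of the scaling in the pathway counts was not tested. The lists were chosen with earlier results of these data known, and no list was tested as a set. These shares of all tested genes also belong beside the counts of each list below.

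Among other CNG and TRP genes, 3 of 10 tested were higher and 1 lower in SoLo (4 and 3 with the block, 5 and 3 without SMARTseq library 1, and 2 lower without SoLo library 1 or SMARTseq library 2). Without the block that is 30% and 10%, beside 20.0% and 27.6% of all tested genes. trp-2, a TRPC channel gene, had 254 ± 29.8 CPM in SoLo, against 114 ± 12.8 CPM in SMARTseq (log2 fold change 1.16 ± 0.15, edgeR adjusted p = 0.000199). The other two higher ones, picked after their values were seen, were the TRPM gene gon-2 with 52.9 ± 2.3 and 30 ± 4.53 CPM, and trpa-2 with 42.2 ± 5.78 and 21.6 ± 7.1 CPM. cup-5, a lysosomal TRPML channel, had 30.7 ± 4.38 CPM in SoLo, against 86.9 ± 23.1 CPM in SMARTseq (-1.50 ± 0.23, adjusted p = 0.000545). Another TRPV gene, ocr-4, had 63 reads in SoLo and 145 in SMARTseq (-0.65 ± 0.79, adjusted p = 0.528), and the CNG gene che-6 had 32 and 30 reads. Both were chosen after their values were seen.

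Upstream, 7 of 19 tested guanylyl cyclases were lower and 0 higher in SoLo by edgeR's quasi-likelihood test (also 0 higher at an unadjusted p under 0.05 and by DESeq2, 1 higher and 11 lower with the block, 1 higher without SMARTseq library 1, and 1 higher and 6 lower with library totals as the only scaling). The share lower was 36.8% without the block, beside 27.6% of all tested genes. gcy-35, a soluble cyclase of oxygen-sensing neurons, had 21.3 ± 5.35 CPM in SoLo, against 123 ± 46.7 CPM in SMARTseq (-2.52 ± 0.31, adjusted p = 0.00012), and gcy-36 17.4 ± 7.79 and 83.6 ± 46.1 CPM (-2.26 ± 0.43, adjusted p = 0.00189). The most abundant cyclase, gcy-28, differed by less than its error at 0.09 ± 0.17. Of 8 phosphodiesterases and cGMP-dependent kinases, 2 were higher and 3 lower (25% and 37.5%, beside 20.0% and 27.6% of all tested genes). With library totals as the only scaling 4 were higher and 1 lower, and by DESeq2 2 and 1. pde-4 had 548 ± 62.1 CPM in SoLo, against 2288 ± 317 CPM in SMARTseq, and pde-3 399 ± 71.1 and 165 ± 34.4 CPM, in opposite directions (-2.06 ± 0.15 and 1.27 ± 0.19). The lower count was 1 without SoLo library 2, 3 or 4.

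Of 12 tested G protein alpha subunits and regulators, 2 were higher and 3 lower in SoLo (6 and 3 with the block, 6 and 1 without SMARTseq library 1, and 5 and 1 with library totals as the only scaling). Without the block that is 16.7% and 25%, near the 20.0% and 27.6% of all tested genes, and is no result about this list. grk-2, a G protein-coupled receptor kinase, had 176 ± 16.5 CPM in SoLo, against 11.8 ± 1.92 CPM in SMARTseq (3.89 ± 0.18, edgeR adjusted p = 6.93e-07). rgs-3, a regulator of G protein signalling, had 45.5 ± 59.5 and 313 ± 319 CPM (-2.78 ± 0.91, adjusted p = 0.0304), but -4.28 without SoLo library 1 and -1.77 without SMARTseq library 1 (adjusted p = 0.0654), and it lost its call without SoLo library 2, 3 or 4 too (0.0817, 0.0817 and 0.0808). These fits had no block, and with the block the edgeR adjusted p of rgs-3 was 4.79e-09. The count higher in SoLo was 1 without any single SoLo library or SMARTseq library 2 or 4, and the count lower was 1 without SoLo library 2, 3 or 4.

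Downstream of calcium entry, 2 of 7 genes were higher in SoLo, the calcineurin A gene tax-6 with 1227 ± 41.9 and 558 ± 56.2 CPM (1.14 ± 0.12, edgeR adjusted p = 4.83e-05) and the calmodulin gene cmd-1 with 2447 ± 96.1 and 1328 ± 76.6 CPM (0.88 ± 0.11, adjusted p = 0.000122). None was lower (1 at an unadjusted p under 0.05, 0 by DESeq2), and with the block 4 were higher and 1 lower. The share higher was 28.6% without the block, beside 20.0% of all tested genes. The count higher was 4 without SMARTseq library 1, and 1 gene was lower without SMARTseq library 4.

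Of 25 intraflagellar transport and ciliary genes, which carry the channels to or along the cilium or build it, 11 were lower and 0 higher in SoLo by edgeR (2 higher at an unadjusted p under 0.05 and 2 by DESeq2), and 17 were lower and 3 higher with the block. Without the block 44% were lower, beside 27.6% of all tested genes. The count lower was 7 without SoLo library 2, 3 or 4, and 3 were higher without SMARTseq library 1. With library totals as the only scaling 3 were higher and 9 lower. bbs-5 and bbs-8, genes of the BBSome complex, had 4.89 to 31 and 9.63 to 40.5 CPM in SoLo, against 58.4 to 307 and 78.6 to 351 CPM in SMARTseq. Their log2 fold changes were -3.42 ± 0.79 and -3.08 ± 0.66 (edgeR adjusted p = 0.00574 and 0.00376), with -4.51 and -3.81 without SoLo library 1, and -2.53 and -2.30 without SMARTseq library 1. daf-19, the RFX transcription factor of ciliated neurons, was lower in SoLo as well (-1.24 ± 0.21, adjusted p = 0.000875), with 128 CPM in SoLo library 1 and 393 CPM in SMARTseq library 1.

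Of 17 tested markers of neuron classes in which the channels are known, 8 were lower and 2 higher in SoLo (11 and 2 with the block). Without the block that is 47.1% and 11.8%, beside 27.6% and 20.0% of all tested genes. This list shares gcy-5, gcy-6, gcy-7, gcy-8, gcy-18, gcy-23 and gcy-36 with the guanylyl cyclases. Of these, gcy-18 and gcy-36 were called lower and are counted in both lists. lim-4, a LIM homeobox gene, had 40.9 ± 25.6 CPM in SoLo, against 583 ± 354 CPM in SMARTseq (-3.83 ± 0.52, edgeR adjusted p = 0.000248), and ets-5, a transcription factor of the gas-sensing BAG neurons, 5.93 ± 3.29 and 55.5 ± 33.9 CPM (-3.22 ± 0.53, adjusted p = 0.000786). The BAG neuropeptide gene flp-17 went the other way with 751 ± 140 and 428 ± 112 CPM (0.81 ± 0.20, adjusted p = 0.00911), as did ceh-14, chosen after its values were seen, with 2.27 ± 0.63 (3.16 without SMARTseq library 2). By comparison, 11 of 18 pan-neuronal genes were higher and 3 lower in SoLo (61.1% and 16.7%).

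**Figure D5:**
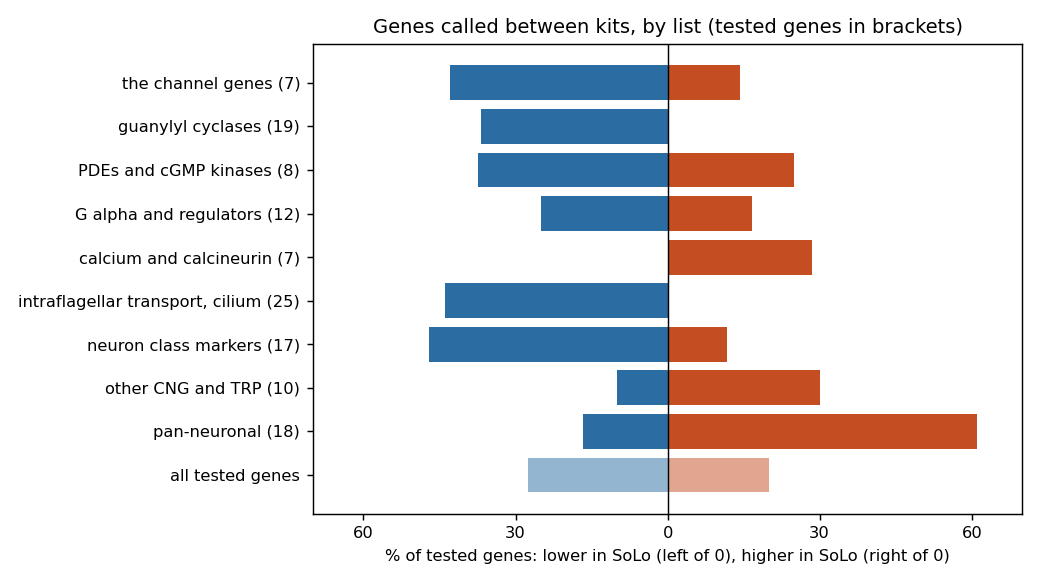
Percent of tested genes called lower (left of 0) or higher (right of 0) in SoLo than in SMARTseq for the channel genes, the lists around them and all tested genes, with the number tested in brackets. With the TMM scaling drawn, guanylyl cyclases and ciliary genes show bars on the lower side alone (1 and 3 of them were higher when scaled by library totals), and all tested genes lie at 27.6% lower and 20.0% higher.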

How the data were processed

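The deposited table holds raw read counts for every gene and library, without normalisation. The submitters' processing notes list STAR, SAMtools, featureCounts and build WBcel235, but no versions and no strand, multi-alignment or molecular identifier settings. Reads of overlapping or near-identical genes may therefore be shared, and without molecular identifiers intervals cover counting error only. The table had 0 columns of no listed sample and 0 rows naming no gene. Positions and union exon lengths came from Ensembl release 115 (42619 genes matched, with 95.7% of counts).

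The kits were compared with edgeR 4.0.16 in R 4.3.3 (quasi-likelihood test, TMM, filterByExpr by kit, all 8 libraries, no block, Benjamini-Hochberg). CPM use TMM factors; standard errors divide the absolute log2 change by the root of F, an approximation. Ratios of partner genes were compared by exact permutation over the 70 splits (scipy 1.17.1), and the length trend is a loess (span 0.3, statsmodels 0.14.6). Alternatives were DESeq2 1.42.0 and other filters, scalings, designs and libraries. Per the series' design text each RNA sample was divided between the kits; that the number in the titles marks it is inferred. Deviations from the kit means correlated by 0.76, 0.37, 0.36 and 0.32 between same-numbered libraries, so the numbers were taken as pairs, but numbers 3 and 4 were not told apart (SoLo 3 with SMARTseq 4 0.34, SoLo 4 with SMARTseq 3 0.34). Unless said otherwise, genes named are all 10 members and, per list, the 2 called genes with the largest fold change and the most abundant gene. The 3 nearest genes of tax-4 and osm-9 and genes with exons over those of a member are named too. Genes of the pan-neuronal and other tissue lists are given as sums and counts only, apart from cab-1 and unc-54. The members and lists were chosen with earlier results of these data known.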

Additional observations from a re-analysis of the deposited data

Results flagged for a closer look

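In 6 of 24 groups of 4 libraries checked (10 genes and 2 ratios in each kit), the library farthest from the others lay beyond Dixon's critical value, and in all 6 that library was number 1. Chance marks about 1 group in 20, and the groups share libraries, so these are not independent. In SoLo library 1 the level was 22.7 CPM for tax-2, 40.5 CPM for cng-2, 96.4 CPM for osm-9, 8.59 CPM for ocr-1 and 19.1 CPM for ocr-2. In SMARTseq library 1 it was 24.5 CPM for ocr-2. The cause was not tested.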

How the results depend on the processing

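Direction was kept under every alternative that gave a value for cng-1, cng-2, osm-9 and trpa-1. The call of cng-1 was lost only with RNA samples 2 to 4 summed and no block (-1.50). There cng-2 (-2.47), osm-9 (2.33) and trpa-1 (-1.09) were not called either, 0 members were higher and 0 lower, 1 and 4 pathway genes were called, and 490 and 851 genes of all; the fit then has 2 libraries a kit. With the replicate block added to the summed libraries, 24 pathway genes were higher. Library totals as the only scaling moved the median of all genes from 0.01 to 0.56, with -2.06 for cng-2, -0.63 for trpa-1, 0.48 for trp-4, 1 member lower, 23 pathway genes higher and 22 lower (11 and 31 with TMM), and 4318 genes of all higher and 2388 lower (2276 and 3139 with TMM). The replicate block gave -0.80 for tax-2 (adjusted p = 0.0493; 0.0508 with RNA samples 2 to 4 summed and 0.257 without RNA sample 1) and 23 pathway genes higher, and changed no other call of a member. It gave 3290 and 3664 calls over all genes, against 2276 and 3139. Without RNA sample 1, 21 pathway genes were higher, or 23 with the block added, a setting chosen after seeing the data.

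Leaving out single libraries gave -3.78 to -1.54 for cng-2, 1.60 to 3.14 for osm-9, -1.36 to -0.92 for trpa-1, -1.84 to -1.37 for cng-1, -1.91 to 0.24 for tax-2, -0.25 to 1.60 for tax-4 and -0.22 to 0.15 for trp-4, and 0 to 1 members higher, 1 to 3 members lower and 10 to 23 pathway genes higher. For each gene the ends of the range came without library 1 of a single kit, which leaves RNA sample 1 in the other kit only. trp-4 also changed sign without a filter on low counts (0.02) and with DESeq2 (0.04). By exact permutation, the osm-9 to ocr-2 difference was 2.82 to 3.75 without single libraries, 3.46 without RNA sample 1 (p = 0.1) and 3.22 by the sign-flip test over the pairs of the replicate block (p = 0.125), designs that allow no smaller p. tax-2 and tax-4 had no value at 50 reads in 4 libraries, and cng-3, ocr-1 and ocr-2 failed the main filter. These 3 had 36 to 81 reads in SoLo and 38 to 172 in SMARTseq, for ocr-2 mostly in library 1 (69 of 81 and 143 of 172). Where no value shows otherwise, the cause was not tested.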
